A study of Mus musculus with 4 samples.

Results

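The genes described here encode enzymes and ligase subunits of the ubiquitin system in mouse testis. They are the genes whose symbols begin with Ube2 (ubiquitin-conjugating enzymes), Ube3 (ligases of the HECT type), Usp and a digit (ubiquitin-specific proteases), Cul and a digit (cullin scaffolds), Rnf and a digit (RING finger proteins), Fbx (F-box proteins) or Dcaf (substrate receptors of the cullin 4 ligases). The symbol had to be the single gene that the array's annotation lists for a probe set, and each gene was represented by its probe set of highest mean signal over the 4 arrays. This gave 107 genes with 146 probe sets, out of 8251 genes named in this way on an array of 12488 probe sets. The classes held 21 Ube2, 1 Ube3, 27 Usp, 5 Cul, 31 Rnf, 16 Fbx and 6 Dcaf genes.

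Testis RNA of C57BL/6J males aged 16 weeks was measured on 4 Affymetrix Mouse Genome U74A version 2 arrays, 2 from Tslc1+/+ and 2 from Tslc1-/- mice. Tslc1 is an older name of Cadm1, an adhesion molecule of the immunoglobulin superfamily that is present on male germ cells. The labels name whole testis and give no sorting of cells, no design of the deleted allele and no word on whether each array stands for its own animal. The p-values therefore reflect the spread among arrays alone, which may be technical.

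Ubiquitin is activated, passed to a conjugating enzyme and attached to a target protein with the help of a ligase, and deubiquitinases take it off again. Cullin ligases are assembled from a scaffold, a RING subunit and an exchangeable receptor: F-box proteins serve cullin 1, and Dcaf proteins serve cullin 4 through Ddb1. In the testis the system is known for histone ubiquitination in meiosis and in spermatids, and for the removal of proteins and organelles while spermatids reshape into sperm. Loss of the conjugating enzyme Ube2b or of the cullin Cul4a is known to make male mice infertile.

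Signals are MAS5 values, a linear brightness in arbitrary units that the submitters scaled to a common array average. Changes are differences of mean log2(signal + 50), Tslc1-/- minus Tslc1+/+, which understates the change of dim probe sets. Probe sets with a mean signal of at least 200 were tested together with limma, and a probe set passed at a Benjamini-Hochberg adjusted p under 0.05 over all 7975 of them. Among the members, 94 of 107 genes were tested.

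The array median signal lay between 361.5 and 378, and log2 signals of any 2 arrays correlated across tested probe sets with r from 0.923 to 0.938. On its brightest probe set the targeted transcript, Cadm1, read 3449.5 and 4027.9 in Tslc1+/+ testis and 775.9 and 604.5 in Tslc1-/- testis. The change there was -2.36 on the log2 scale (limma, adjusted p = 0.000183). A slightly dimmer Cadm1 probe set fell further, from 3960 and 3925.2 to 443.5 and 444.9 (log2 change -3.01, limma adjusted p = 2.31e-05). Both have a suffix that marks possible cross-hybridisation. Among marker lists of testis cells, 4 of 10 round spermatid and 6 of 13 elongating spermatid genes fell, with median log2 changes of -0.22 and -0.46. Over all tested probe sets 0.840% passed as lower. Of those with a signal of at least 5000, 7.28% passed in either direction, and the lists had median signals of 7791 and 25398.5. Acr of the round spermatid list (0.15) and Prm2, Haspin and Actl7b of the elongating spermatid list (0.18, 0.13 and 0.05) had changes above 0, and none of these passed. The summed signal of the round spermatid list was 212604 and 219209 in Tslc1+/+ testis and 151321 and 153564 in Tslc1-/- testis, and that of the elongating spermatid list was 616512 and 623758 against 454070 and 426861. The 7 endothelial genes summed lower on both Tslc1-/- arrays (2383.4 and 2369.6 against 1404.3 and 1402.9). These are dim genes, of which 3 were bright enough to be tested, and none passed. Pecam1 and Kdr had log2 changes of -1.92 and -1.13, and Vwf had one of 0.22. The round spermatid, elongating spermatid and endothelial sums stayed lower on both Tslc1-/- arrays without the gene of each whose mean signal moved most. The 7 peritubular myoid genes summed to 17903 and 19953 against 15215 and 14395, but without Actg2, a smooth muscle actin that fell on a probe set marked as shared with related transcripts (limma adjusted p = 0.0192), the other 6 overlapped. The 10 Leydig cell genes summed to 19873 and 21155 against 18065 and 19293, and without the steroid enzyme gene Cyp17a1 the other 9 overlapped. In that list Hsd3b6 had a log2 change of the other sign (1.07, limma adjusted p = 0.173). The spermatogonia, spermatocyte, Sertoli cell, macrophage and epididymis lists had sums that overlapped between the genotypes. The spermatocyte list nevertheless held a gene that fell, the glycolytic enzyme gene Pgk2 (log2 change -0.78, limma adjusted p = 0.00495). Without Csf1r, the macrophage gene whose mean signal moved most, the other 8 summed to 4237 and 3459.8 against 4990 and 4306.5. That sum was higher on both Tslc1-/- arrays, while no tested macrophage gene passed. In the epididymis list, 3 genes were on the array, and they summed to between 277.8 and 617.1. The 3 erythrocyte genes summed to 2048.8 and 2470.5 against 2826 and 2732.5. They moved in different directions, with Hba-a1 at 0.75 and Alas2 at -0.53, neither of which passed. Without Hba-a1 the other 2 summed lower on both Tslc1-/- arrays (1151.4 and 1334.8 against 962.7 and 1116.9).

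Of the 94 tested members, Dcaf12 rose and Rnf167 fell in Tslc1-/- testis, and 92 did not pass. Over all tested probe sets 1.08% passed, 0.238% as higher and 0.840% as lower, and 2.13% of the members did, a count of 2 that does not set them apart. The median log2 change of the members was 0.01, and that of all tested probe sets was 0.02. Changes were above 0 for 52 members and below 0 for 42, and 55 members (58.5%) lay within 0.25 of 0 on the log2 scale, against 54.8% of all tested probe sets. The genotypes' arrays did not overlap for 42 members, 21 higher and 21 lower in Tslc1-/-. This was 44.7% of the tested members, against 40.0% of all tested probe sets (21.5% higher and 18.5% lower). A change of at least 1 in size without overlap was found for 3 members, Dcaf12, Ube2f and Fbxl15, and for 3.92% of all tested probe sets. Ube2f and Fbxl15 were under the level of the signal filter on both Tslc1-/- arrays. They reached it as means through their Tslc1+/+ arrays, so the size of their fall is tied to their being tested.

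Because Dcaf12 and Rnf167 were the members that passed, the 250 bases before an annotated start of each are shown, from RefSeq on GRCm38.p6, with matches to a CCAAT box (CCAAT) and a GC box (GGGCGG) on either strand in capitals. The Dcaf12 window is chr4:41314902-41315151 on the minus strand. It lies inside the annotated span of the gene (41291300 to 41316749 on that chromosome), whose outermost start is further upstream. The Rnf167 window is chr11:70646985-70647234 on the plus strand, at the upstream end of the gene's span (70647230 to 70651421).
Dcaf12: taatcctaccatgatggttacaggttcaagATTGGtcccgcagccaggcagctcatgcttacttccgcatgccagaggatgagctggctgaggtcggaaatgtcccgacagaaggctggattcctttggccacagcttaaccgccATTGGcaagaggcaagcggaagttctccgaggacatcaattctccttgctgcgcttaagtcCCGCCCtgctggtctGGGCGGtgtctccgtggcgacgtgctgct
Rnf167: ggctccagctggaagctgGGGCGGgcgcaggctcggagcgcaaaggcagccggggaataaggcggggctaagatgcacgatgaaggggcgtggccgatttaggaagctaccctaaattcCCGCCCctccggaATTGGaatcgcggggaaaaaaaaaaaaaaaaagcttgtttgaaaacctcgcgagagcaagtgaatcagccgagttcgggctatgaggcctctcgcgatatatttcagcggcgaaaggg

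The Dcaf12 window held 2 CCAAT boxes and 2 GC boxes, and the Rnf167 window 1 CCAAT box and 2 GC boxes. Neither held the cyclic AMP response element TGACGTCA or its core TGACG, which is contained in the former. Windows were matched for 77 of the 107 members, 104 windows in all. A CCAAT box was in 26.9% of those and in 35.4% of the 21263 windows of protein-coding genes, a GC box in 65.4% and 42.6%, TGACG in 23.1% and 20.2%, and TGACGTCA in 1.92% of both. Windows of a gene with several starts can overlap, and these matches describe letters, not binding.

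Among the substrate receptors, Dcaf12 rose. It is a receptor of the cullin 4 ligases that binds the C-terminal ends of its targets. The Dcaf12 signal was 1504.4 and 896.8 in Tslc1+/+ testis and 2938.9 and 4202.4 in Tslc1-/- testis. Both Tslc1-/- arrays were thus above both Tslc1+/+ arrays, and within each genotype the 2 arrays also lay well apart. The means were 1200.6 ± 429.6 and 3571 ± 893 (SD, n = 2), a 2.94-fold increase, which on the log2 scale was 1.56 with standard error 0.25 and a 95% confidence interval of 1.01 to 2.10 (limma, adjusted p = 0.0138). Dcaf12 still passed without Tslc1+/+ replicate 1 (limma, adjusted p = 0.010), but not without Tslc1+/+ replicate 2 (0.0828), Tslc1-/- replicate 1 (0.0677) or Tslc1-/- replicate 2 (0.194), with log2 changes between 1.20 and 1.91. It did not pass when the spread was estimated without regard to signal (limma, adjusted p = 0.488).

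The other Dcaf genes did not pass. Dcaf13, a nucleolar protein of ribosome assembly, read 608.4 and 595.8 in Tslc1+/+ testis and 976.1 and 834.7 in Tslc1-/- testis (log2 change 0.55, limma adjusted p = 0.48). Dcaf1, the receptor hijacked by the HIV protein Vpr and the brightest of the class, read 4937 and 4672 against 4397.2 and 4226.6, a log2 change of -0.15 with a 95% confidence interval of -0.41 to 0.10. Dcaf11 and Dcaf8 had log2 changes of -0.11 and 0.09. Dcaf8l was below the signal filter, at 19.6 and 46.3 in Tslc1+/+ testis and 245 and 408.1 in Tslc1-/- testis. Fitted without the filter, Dcaf8l was at 2.17 on the log2 scale (limma, adjusted p = 0.268), a larger value than that of Dcaf12 on a far dimmer probe set. The median log2 change of the 5 tested Dcaf genes was 0.09, and with Tslc1-/- replicate 1 left out it was -0.17.

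The scaffolds that carry such receptors did not pass, and 1 of the 4 tested cullins had an unadjusted p under 0.05. Ddb1, which joins Dcaf proteins to cullin 4, read 12837.6 and 14220.7 in Tslc1+/+ testis and 14405.7 and 12350.6 in Tslc1-/- testis, so the genotypes overlapped. Cul4a read 3105.6 and 3220.9 against 3114.1 and 3342.6 (log2 change 0.03). The genotypes of Cul4a overlapped too. Cul3, which works with BTB-domain receptors, was the brightest cullin, at 12637.8 and 10849.1 against 9714.8 and 9822.8. Its log2 change was -0.26 with a 95% confidence interval of -0.49 to -0.03 (limma, adjusted p = 0.412). Cul1, the scaffold of the F-box ligases, and Cul2, that of the Vhl ligase, overlapped between genotypes, with log2 changes of 0.05 and -0.17. The median over the 4 tested cullins was -0.07. Cul7 was below the filter, at 73.1 and 246.5 against 68 and 51.7.

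Rnf167 was the ligase that fell. It is a RING protein with a membrane anchor, found on endosomes and lysosomes. The Rnf167 signal was 6227 and 6137.8 in Tslc1+/+ testis and 3070.8 and 4150.6 in Tslc1-/- testis. The Tslc1+/+ arrays nearly coincided, and both Tslc1-/- arrays lay far below them. The means were 6182 ± 63.1 and 3611 ± 764 (SD, n = 2), a 1.72-fold decrease, which on the log2 scale was -0.78 with standard error 0.15 and a 95% confidence interval of -1.11 to -0.45 (limma, adjusted p = 0.035). With 1 array left out it passed only without Tslc1-/- replicate 2 (limma, adjusted p = 0.0339), and adjusted p was 0.180 to 0.202 without each other array. Rnf167 also did not pass with equal array medians (0.0571), with all probe sets tested (0.0889) or without the intensity trend (0.545), while its log2 change stayed between -0.998 and -0.57 throughout.

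Rnf19b, a ligase of the RING-between-RING type and the brightest RING member, came close to passing. It read 14290.8 and 15137.1 in Tslc1+/+ testis and 11476 and 10809.7 in Tslc1-/- testis, so the genotypes did not overlap. The log2 change was -0.40 with a 95% confidence interval of -0.60 to -0.20 (limma, adjusted p = 0.0858). Its paralog Rnf19a, known from spermatids, read 7299.7 and 7808.5 against 7256.5 and 7881.4, a log2 change of 0.00 (standard error 0.10). The difference between these paralogs was not tested. The falls of the spermatid marker lists given above moved in the same direction as Rnf167 and Rnf19b, and their part in these values was not tested. In whole testis, fewer cells of a type and less RNA per cell cannot be told apart.

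The remaining RING genes spread around 0. Over the 29 tested the median log2 change was 0.02, with 16 above 0 and 13 below. The genotypes did not overlap for 11 of them, 7 lower and 4 higher. This was 37.9% of the tested RING genes, against 40.0% of all tested probe sets. The lower ones, beside Rnf167 and Rnf19b, were Rnf138, Rnf181, Rnf149, Rnf11 and Rnf2, with changes from -0.40 to -0.19. The Rnf11 probe set has a suffix that marks possible cross-hybridisation. Rnf138, which acts in repair of broken DNA, read 9914.7 and 8890.9 against 6924.9 and 8507.3 (log2 change -0.29, limma adjusted p = 0.45), on a probe set with a suffix that marks possible cross-hybridisation. Those that read higher were Rnf5, Rnf8, Rnf166 and Rnf26, with changes from 0.15 to 0.37. Rnf5, a ligase of the endoplasmic reticulum membrane, read 1648.3 and 1600.4 against 2122.1 and 2106.4 (log2 change 0.37, limma adjusted p = 0.453).

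Ligases known for marking histones in the germ line were among those that did not pass. Rnf8, which ubiquitinates histones at DNA breaks and on the sex chromosomes, read 503.8 and 537 against 599.1 and 704.3 (log2 change 0.30, 95% confidence interval -0.32 to 0.91). Rnf2, the catalytic ligase of the Polycomb complex, read 1494.4 and 1169.6 against 854.3 and 1147.7 on its brightest probe set (log2 change -0.40), while the other tested ones had changes of -0.04 and 0.34. Rnf20, which ubiquitinates another core histone, had a log2 change of 0.24 on its brightest probe set, with overlapping genotypes. By its suffix, that probe set may cross-hybridise. On a dimmer tested Rnf20 probe set without such a suffix the genotypes did not overlap. It read 332.1 and 452.8 against 562.8 and 546 (log2 change 0.46, limma adjusted p = 0.706). Rnf4, which recognises sumoylated proteins, and the testis gene Rnf141 had changes of -0.02 and 0.08. The highest value of the class was that of the dim Rnf114, at 71.7 and 265.8 against 477.8 and 226.3, where the genotypes overlapped and the 95% confidence interval ran from -0.57 to 2.50.

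**Figure D1:**
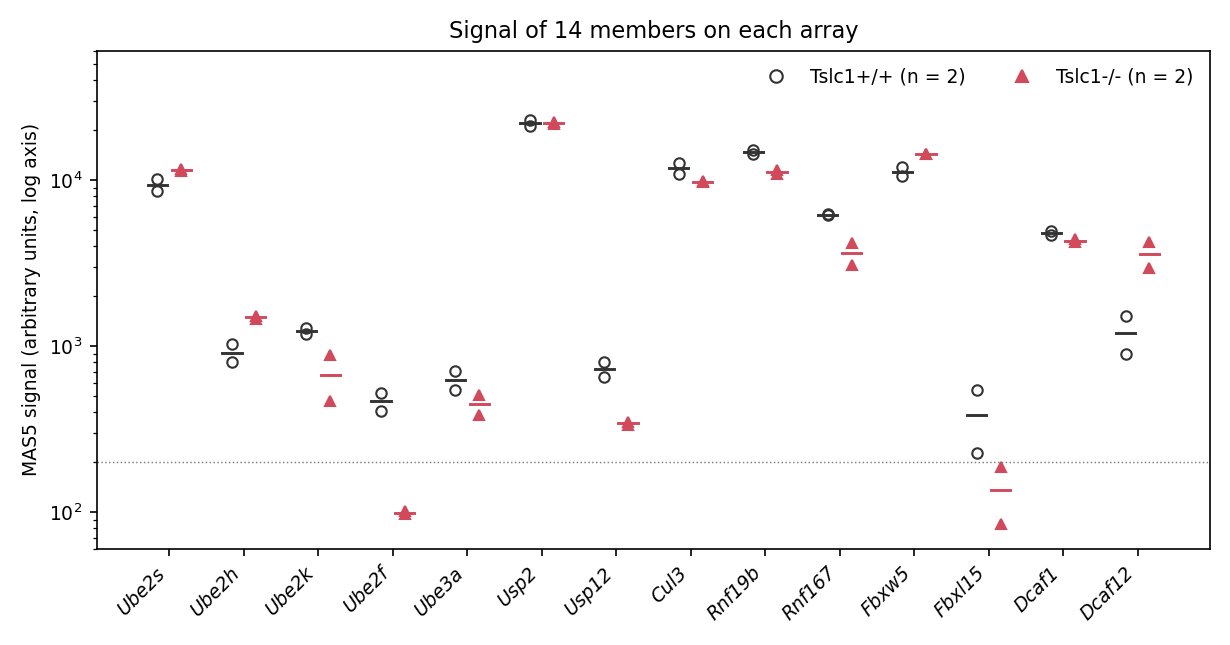
MAS5 signal (log axis, arbitrary units) of 14 members on each array, with open circles for Tslc1+/+, triangles for Tslc1-/- (n = 2 each), horizontal bars for the mean and a dotted line at the signal filter of 200. Dcaf12 is above its Tslc1+/+ arrays on both Tslc1-/- arrays (2938.9 and 4202.4 against 1504.4 and 896.8), Rnf167 is below (3070.8 and 4150.6 against 6227 and 6137.8), and Usp2 has means of 22051 and 22111.

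Conjugating enzymes had the widest range of changes of any class with over 5 tested genes, from -1.78 to 0.69, with none of 19 passing (limma; 4 at an unadjusted p under 0.05) and a median of 0.00. Both extremes came from probe sets of moderate or low signal. Ube2f, which loads the ubiquitin-like protein Nedd8 onto cullins, read 523.8 and 407.9 in Tslc1+/+ testis and 101.6 and 96.7 in Tslc1-/- testis. The arrays of each genotype were close together, and the Tslc1-/- values were under the signal of 200 used as the filter. The log2 change of Ube2f was -1.78 with a 95% confidence interval of -3.07 to -0.49 (limma, adjusted p = 0.267), and the adjusted p ranged from 0.221 to 0.624 over the alternatives in which it was tested. Ube2h, a partner of the multi-subunit CTLH ligase, read 796.3 and 1021.1 against 1523 and 1451.7 (log2 change 0.69, limma adjusted p = 0.203). The second Ube2h probe set read 1014.9 and 1042.6 against 957.1 and 1055.4, so a single probe set of this gene carried the difference. Ube2k, a builder of the chains that lead to the proteasome, read 1177.7 and 1279.1 against 466.9 and 877.1 (log2 change -0.88, limma adjusted p = 0.26). Its second probe set, with a suffix that marks possible cross-hybridisation, read 790.6 and 281.5 against 1419.8 and 262.3. The arrays of each genotype lay far apart there, and the change of 0.36 had a 95% confidence interval of -1.07 to 1.79.

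Ube2s, which extends chains for the anaphase-promoting complex, was the brightest of the class. It read 8523.5 and 10153.7 in Tslc1+/+ testis and 11290.7 and 11682.4 in Tslc1-/- testis, a log2 change of 0.30 with a 95% confidence interval of 0.06 to 0.54 (limma, adjusted p = 0.34). Ube2c, which starts the chains that Ube2s extends, read 546.2 and 503 against 411.6 and 290.7, a log2 change of -0.53 with an interval of -1.31 to 0.25. These partners in one ligase thus had estimated changes of opposite sign, but neither passed and the Ube2c interval included 0. The Ube2c probe set also has a suffix that marks possible cross-hybridisation. Ube2n and its inactive partner Ube2v1, which together build chains used in signalling and repair, overlapped between genotypes. Ube2n read 7262.5 and 9371.7 against 6481 and 7978, and Ube2v1 read 2302.7 and 2748.5 against 2354.2 and 2689. The log2 changes were -0.20 and 0.00.

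Ube2b, the Rad6 homolog needed for male fertility, read 1158.3 and 1680.3 in Tslc1+/+ testis and 1749.3 and 1802.4 in Tslc1-/- testis. Both Tslc1-/- arrays were higher, by a small margin over Tslc1+/+ replicate 2, and the log2 change was 0.34 with a 95% confidence interval of -0.11 to 0.79. Its paralog on the X chromosome, Ube2a, was below the signal filter, at 39 and 199.1 against 83.3 and 234.2. Ube2r2, Ube2o and Ube2l6 also read higher on both Tslc1-/- arrays, with changes of 0.24, 0.28 and 0.42, and Ube2d2a lower, with a change of -0.29. A dimmer tested Ube2o probe set, with a suffix that marks possible cross-hybridisation, had a change of 0.62 (limma, adjusted p = 0.228). Ube2l6 conjugates the interferon-induced modifier Isg15. For the other 8 tested conjugating enzymes, Ube2e1, Ube2e3, Ube2v2, Ube2d3, Ube2g1, Ube2z, Ube2n and Ube2t, the genotypes overlapped and changes ran from -0.34 to 0.20, as they did for Ube2v1. Ube3a, the ligase lost in Angelman syndrome and the sole HECT member by this rule, read 540.3 and 706.7 against 382.6 and 507.7, a log2 change of -0.44 with an interval of -1.14 to 0.25.

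F-box proteins had a median log2 change of 0.10 over 14 tested genes, of which 9 were above 0 and none passed (limma; 1 at an unadjusted p under 0.05). Fbxw5, a receptor linked to cell cycle and centriole control, was the brightest, at 10496.6 and 11914.8 against 14235.7 and 14416.1. Its log2 change was 0.36 with a 95% confidence interval of 0.14 to 0.57 (limma, adjusted p = 0.16). This Fbxw5 probe set has a suffix that marks possible cross-hybridisation. A second tested Fbxw5 probe set, without that suffix, read 7605.3 and 6863.5 against 8316 and 8486.5, so both were higher on both Tslc1-/- arrays. Fbxw7, which targets cyclin E and Myc, read 650.8 and 707.2 against 832.7 and 918.7, and Fbxo45 and Fbxo38 were likewise higher without overlap, with changes of 0.34, 0.25 and 0.13. Fbxl5, the receptor that senses iron, had a change of 0.43 with overlapping genotypes, on a probe set that also has such a suffix. In the other direction, Fbxo21 read 1720.9 and 1525.3 against 1330.9 and 1091.6 (log2 change -0.41, limma adjusted p = 0.515), and Fbxo15 had a change of -0.27. Fbxl15 had the lowest value of the class at -1.18, from 540.7 and 227 to 84.9 and 187.4, where the Tslc1+/+ arrays differed more than 2-fold from each other and the interval ran from -2.66 to 0.31. The other 6 tested, Fbxo3, Fbxo6, Fbxo9, Fbxw2, Fbxw4 and Fbxw11, overlapped, with changes from -0.09 to 0.18.

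**Figure D2:**
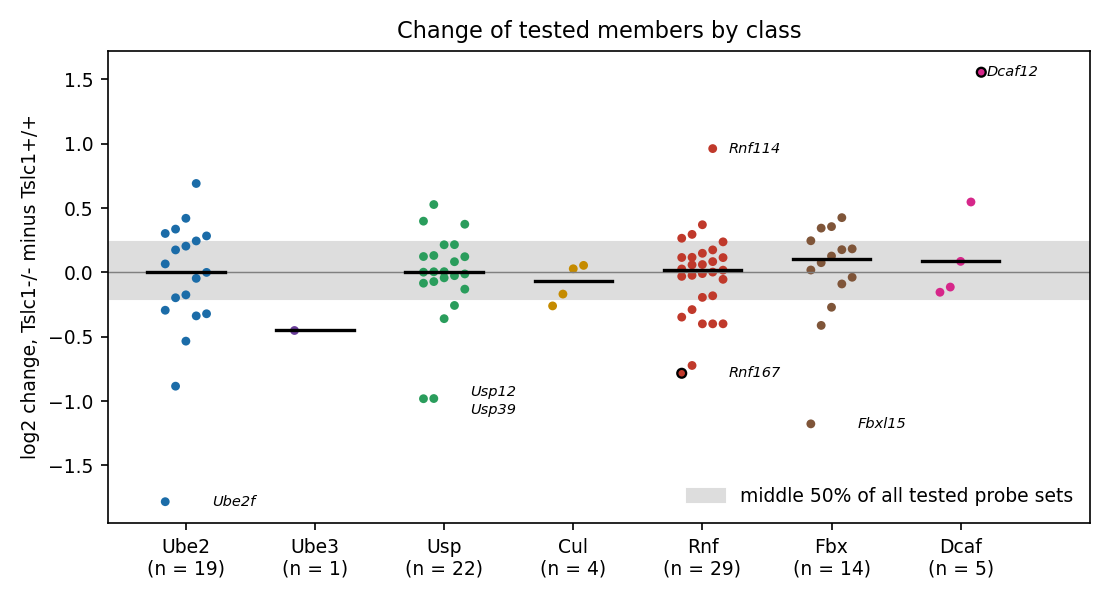
Log2 change of each tested member (points), by class, with a bar at the class median and the grey band spanning the middle 50% of all tested probe sets (-0.21 to 0.24); points with a black rim passed. Class medians lie between -0.07 and 0.10 apart from the single Ube3 gene at -0.44, and Dcaf12 (1.56) and Rnf167 (-0.78) are the members that passed.

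Deubiquitinases lay close to 0. Of 22 tested Usp genes, 15 (68.2%) lay within 0.25 of 0 on the log2 scale, against 54.8% of all tested probe sets. The median was 0.00 and none passed (limma), with 2 at an unadjusted p under 0.05. The median signal of these genes was 1983, against 777 for all tested probe sets. Over all tested probe sets the median size of change was 0.377 at signals from 200 to 500 and 0.133 from 5000 up. The part of brightness in the Usp share was not tested. Usp2, known as a testis-rich protease needed for full male fertility, was the brightest of all members. It read 22928.4 and 21174.1 in Tslc1+/+ testis and 22445.3 and 21777 in Tslc1-/- testis, with a log2 change of 0.00 and a 95% confidence interval of -0.18 to 0.19. The Tslc1-/- arrays lay between the Tslc1+/+ arrays. With quantile normalization the Usp2 change was 0.16 (limma, adjusted p = 0.505). Usp1, Usp4, Usp5, Usp7, Usp8, Usp10 and Usp19 also overlapped, with changes from -0.08 to 0.01. Among them are the regulator of the Fanconi repair pathway (Usp1), the enzyme that takes apart free chains (Usp5), the partner of p53 and Mdm2 (Usp7) and the enzyme that frees receptors at endosomes (Usp8).

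The lowest values of the class came from Usp12 and Usp39. Usp12, a histone deubiquitinase, read 803 and 650.9 in Tslc1+/+ testis and 334.2 and 349.3 in Tslc1-/- testis, a log2 change of -0.98 with a 95% confidence interval of -1.66 to -0.30 (limma, adjusted p = 0.241). The genotypes were clearly apart, and over the alternatives the adjusted p ranged from 0.161 to 0.577. Usp39, a splicing factor that lacks protease activity, read 512.2 and 616.3 against 468.9 and 135.6, so its change of -0.98 rested on Tslc1-/- replicate 2. Usp15 read lower on both Tslc1-/- arrays as well (log2 change -0.26). Usp3, another histone deubiquitinase, read 2205.9 and 2343.7 against 3289.5 and 2758.2 on its brightest probe set (log2 change 0.40, limma adjusted p = 0.374). That probe set has a suffix that marks possible cross-hybridisation, and the other tested ones of Usp3 had changes of -0.06 and -0.13. Usp34, Usp24, Usp25 and Usp48 were higher without overlap, with changes of 0.12 to 0.37. The Usp34 and Usp25 probe sets have the same kind of suffix. A dimmer Usp34 probe set without it overlapped between genotypes, with a change of 0.12. Usp9x, Usp14, Usp21, Usp38 and Usp42 overlapped, with changes from -0.36 to 0.13. Usp22, the deubiquitinase of the SAGA complex, had the highest value at 0.53, from a dim probe set at 78.2 and 299.7 against 266.3 and 244.4.

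In signal, the classes were ordered alike on each array at the top. The median over tested members was 3060.6 to 3336.9 for cullins over the 4 arrays, 1828.8 to 2123.8 for Usp genes and 1494.2 to 1723.7 for RING genes. It was 878.9 to 1134.1 for conjugating enzymes, 848.4 to 992.1 for F-box genes and 595.8 to 976.1 for Dcaf genes, and the ranges of these last 3 overlapped. The median of all tested probe sets was 775.1 to 797.6. Brightness also depends on the probes, so these medians describe signals and not amounts of transcript, and the classes were not tested against each other. Choosing the brightest probe set of a gene raises the members' signals: of all 146 member probe sets 119 reached the filter, and of all 12422 probe sets 7975 did. At a signal of 5000 or more were 17 members, 18.1% of the tested ones, with 8.95% of tested probe sets there.

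**Figure D3:**
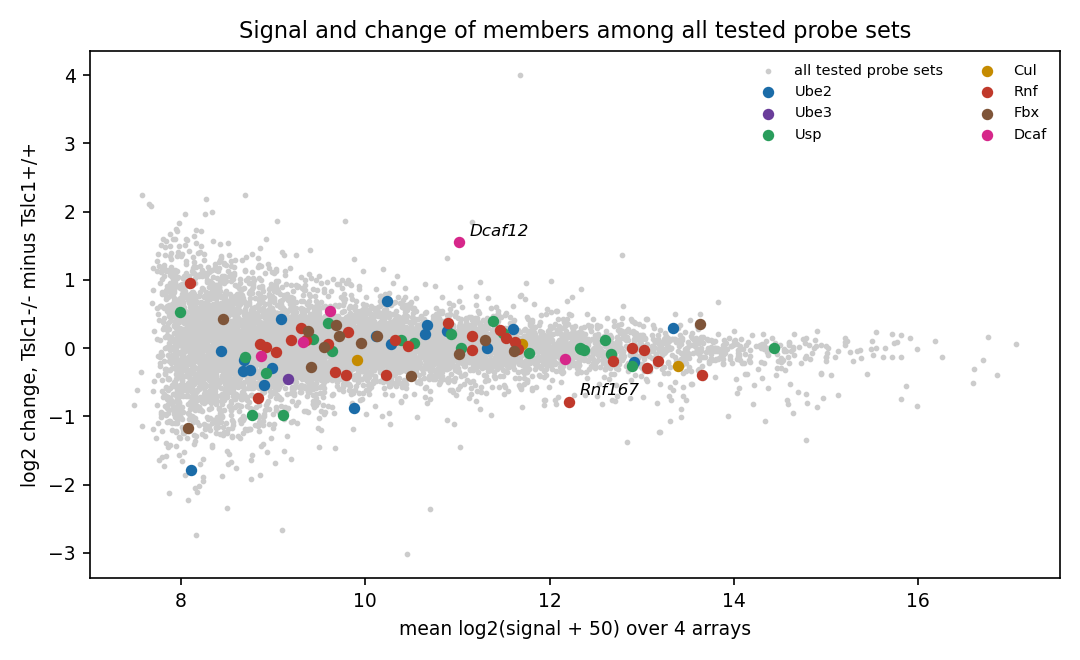
Mean log2(signal + 50) over the 4 arrays against log2 change, with all 7975 tested probe sets in grey and members coloured by class. The members spread more at low signal, and the 17 with a signal of at least 5000 lie between -0.40 and 0.36.

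The standard error of a member's change fell with its signal. This is in part built into the fit, which estimates the spread with a trend on signal. The median standard error of the log2 change was 0.45 for the 19 members with a signal from 200 to 500, 0.24 for the 38 from 500 to 2000, 0.15 for the 20 from 2000 to 5000 and 0.11 for the 17 above. Both members that passed were in the third of these ranges. Unadjusted p was under 0.05 for 14 members, 14.9%, against 10.0% of all tested probe sets. These were Dcaf12, Rnf167, Rnf19b, Fbxw5, Ube2h, Usp12, Ube2k, Ube2f, Ube2s, Usp3, Cul3, Rnf138, Rnf5 and Dcaf13, and 7 of the 14 were higher in Tslc1-/-. Among the 17 brightest members, 5 had an unadjusted p under 0.05 (29.4%) and none passed, where 26.5% of all equally bright probe sets had such a p and 7.28% passed.

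Probe sets of one gene did not always move together. Of 22 members with several tested probe sets, 12 had changes of the same sign on all and 10 did not. The widest gap was that of Ube2k (-0.88 and 0.36), whose second probe set varied widely within each genotype. Rnf220 came next, at -0.18 on its bright probe set and 1.05 on a dim one. Opposite signs were also found for Ube2h, Ube2d3, Ube2z, Rnf2, Rnf13, Rnf14, Fbxo3 and Usp3. Changes were close for Usp19 (0.01 on both), Usp34 (0.12 on both), Usp7 (-0.07 and -0.01) and Fbxw5 (0.36 and 0.22). Dcaf12 and Rnf167 each had a single probe set, so neither call has such a second reading.

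**Figure D4:**
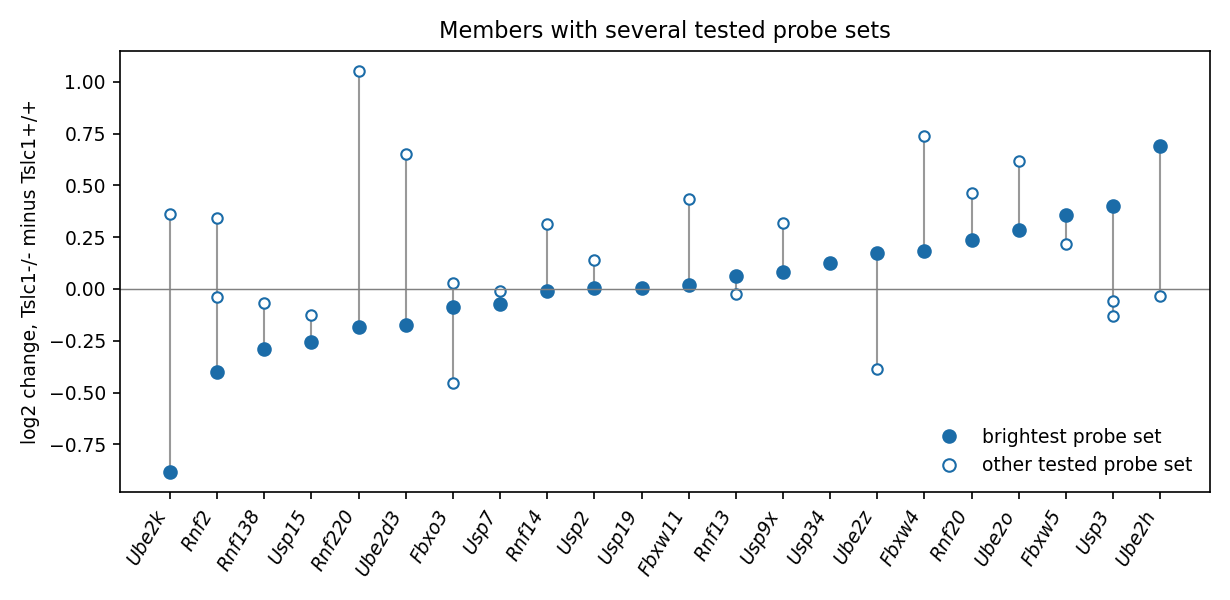
Log2 change of every tested probe set of the 22 members that had several, filled for the brightest and open for the others, joined by a line for each gene. In 10 genes the line crosses 0, with the longest for Ube2k, from -0.88 to 0.36.

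The 13 members below the signal filter were Ube2a, Ube2w, Cul7, Dcaf8l, Fbxl12, Fbxo8, Rnf112, Rnf225, Usp17la, Usp17lc, Usp18, Usp29 and Usp33, with mean signals from 33.6 to 179.8. Ube2w, which starts chains at the N-terminus of proteins, read 207.2 and 257.1 against 147.9 and 85.9. Usp17la and Usp17lc belong to a family of near-identical genes, so their probe sets may read several of them. Fitted without the filter, none of these passed (limma), with Dcaf8l the furthest from 0.

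Other genes of the pathway, from lists drawn up with earlier results of these data known, showed no call, and outside the ligases none had an unadjusted p under 0.05 (limma). None of 8 tested genes of ubiquitin, its relatives and the activating enzymes passed, with a median log2 change of -0.02. The smallest p there was that of Uba1y, the activating enzyme on the Y chromosome (0.48, limma adjusted p = 0.719). None of 18 cullin partners and COP9 subunits passed (median 0.06), with the COP9 subunit gene Cops3 at 0.26 (limma, adjusted p = 0.521). None of 43 ligases with other names passed (median 0.05), although 5 had an unadjusted p under 0.05 (11.6%, against 10.0% of all tested probe sets). Of these 5, 2 were higher and 3 lower. Siah1a, a RING ligase known to act in meiosis of male mice, read 465.3 and 666.9 against 1044.5 and 1310.2 (log2 change 1.01, limma adjusted p = 0.128). Ube4b, a chain-elongating ligase, read 556.2 and 525.4 against 1004.4 and 1012.1 (log2 change 0.84, limma adjusted p = 0.177). The lower ones were Siah2, a paralog of Siah1a, at -0.74, Cbl at -0.49 and Wwp2 at -0.32. None of 7 other deubiquitinases passed (median -0.07), with the proteasome-bound Uchl5 at -0.35 (limma, adjusted p = 0.597). Uchl1, abundant in spermatogonia, read 2601 and 2251.5 against 2385.4 and 2602.8.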

How the data were processed

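The authors deposited 1 intensity per probe set on a linear scale, which per the labels' design text they made with Microarray Suite 5.0 (MAS5 in the submitters' processing notes) and scaled on every array to a target of 1000. The 2% trimmed mean was 1001 on each array. Such scaling hides a change in total RNA. Detection calls were not used here, and depth is not defined for arrays; their number, 2 per genotype, limits the precision.

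Gene names come from the platform annotation, and all 107 members matched RefSeq genes of GRCm38.p6 by Entrez identifier with no change of symbol. Of 12488 probe sets, 66 controls were left out; 10833 had 1 gene, 396 several and 1193 none. The test was limma 3.58.1 (R 4.3.3): lmFit on log2(signal + 50), eBayes with an intensity trend, two-sided, Benjamini-Hochberg over 7975 probe sets with a mean signal of at least 200. The fit was tested on simulated data.

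Members and lists were chosen with earlier results of these data known. Named by rule were the members that passed, the brightest, highest and lowest of each class, those with a change of at least 1 and no overlap, those with probe sets of opposite sign, and the smallest p of each pathway list. Other genes were named after their values were seen. Replicate numbers were not used as pairs, since deviations of same-numbered arrays correlated with r = -0.0012 across probe sets. Alternatives varied the added constant, the filter, scaling, trend, block, arrays, probe sets and symbols.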

Additional observations from a re-analysis of the deposited data

How the results depend on the processing

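The precision is limited by 2 arrays per genotype, and most of all for dim probe sets. Over 15 alternatives the count of probe sets that passed went from 86 to 0 without the intensity trend and to between 37 and 43 with 1 array left out. With the replicate number as a block it was 239, with 2 members higher, 3 lower and 1 other pathway gene, but the numbers pair no samples by the labels or the data. Members that passed as higher (1) were 0 without the trend and 0 to 1 with 1 array left out. Members that passed as lower (1) were 0 without the trend, with no filter on signal and with equal array medians, and 0 to 1 with 1 array left out. The count of members whose genotypes did not overlap (42) was 66 to 69 with 1 array left out, since 3 arrays separate more easily, and was not recomputed under the between-array scalings. Class medians moved beyond the spread between arrays as follows. With no filter on signal the cullin median was -0.17 and the Dcaf median 0.32, and with a mean signal of at least 500 the Dcaf median was 0.32 and the Ube2 median 0.22. With 1 array left out the medians ranged from -0.15 to 0.0034 (cullins), -0.17 to 0.42 (Dcaf), -0.00026 to 0.19 (F-box) and -0.12 to 0.051 (RING). The medians of all members (-0.06 to 0.06), of Usp genes (-0.01 to 0.07) and of Ube3a (-0.63 to -0.26) stayed within that spread under all 15. The sign of 8 members turned under a between-array scaling, all with changes of at most 0.03 in size (Usp2, Usp5, Usp19, Ube2v1, Rnf10, Rnf19a, Rnf34 and Fbxw11). Dcaf12 passed under 11 of 15 alternatives and Rnf167 under 9, with the exceptions given with their values above. Among these passes, the one with updated symbols repeats the main fit, since no member's symbol changed. Each of the 2 genes has a single probe set, without a suffix that marks possible cross-hybridisation. Leaving out suffixed probe sets or averaging those of a gene could therefore not alter their log2 changes, only the estimated spread and the adjustment.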
